A study of Homo sapiens with 15 samples.

Results

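The genes described here are 9 transcriptional targets of the tumour suppressor p53 and GDF15, in A375 cells made to overexpress VAV1 or RAC1 P29S. The set is GDF15, MDM2, FAS, BAX, BBC3, TNFRSF10B, ZMAT3, SESN1, TP53INP1 and BTG2, chosen by symbol. Earlier results of these data were known when it was chosen. All 10 were listed among 16768 genes in the vehicle and saracatinib libraries and among 16295 genes in the untreated libraries, and all 10 passed the filter on low values in both. The question put to them was whether GDF15 moved with the other 9 or alone.

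The A375 line is an established one, derived from a human melanoma and driven by mutant BRAF. VAV1 loads RAC1 with GTP (an exchange factor), RAC1 P29S is a fast-cycling mutant of that GTPase found in melanoma, and saracatinib is an inhibitor of SRC family kinases. The 15 RNA-seq libraries, from total RNA of cells grown in DMEM with serum, form 5 groups of 3. In the first experiment the cells carried an empty vector and received vehicle, overexpressed VAV1 and received vehicle, or overexpressed VAV1 and received saracatinib. In the second experiment the cells carried an empty vector or RAC1 P29S and were untreated. Every group shares the A375 background, and no group joins the empty vector with saracatinib. The promoter of the vectors, the dose and duration of saracatinib, and whether the lines are clones or pools are not given in the sources used here. The series calls the replicates biological without saying what was separate, so each p-value reflects only how these libraries spread.

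The overexpressed genes followed the sample titles. VAV1 stood at 13.86 to 13.94 in the VAV1 libraries with vehicle, at 14.10 to 14.16 with saracatinib and at 1.90 to 2.49 with the empty vector, on the log2(normalized count + 1) scale used throughout, and it was not listed in the untreated libraries. RAC1 stood at 14.89 to 14.95 in the RAC1 P29S libraries and at 11.87 to 11.90 in their controls. The RAC1 P29S samples carry a genotype label of empty vector, so the groups were taken from the titles. Summed over genes, the libraries held 14443900 to 16262800 normalized counts, of which mitochondrial genes made up 1.01% to 2.003%. SOX10, a defining melanoma marker, was present in every group, at a mean of 12.88 with the empty vector and vehicle, 10.80 with VAV1, 11.43 with VAV1 and saracatinib, 13.20 with the untreated empty vector and 12.10 with RAC1 P29S. The pigment genes were low, with group means of at most 5.25 for PMEL and 3.67 for MLANA. Of the 8 melanoma and melanocyte markers, TYR and DCT were not listed in the vehicle and saracatinib libraries. The other 6 summed there to 8993 to 9511 normalized counts with the empty vector and vehicle against 2986 to 3127 with VAV1 and 3580 to 3725 with VAV1 and saracatinib. All 8 summed to 11218 to 12247 with the untreated empty vector against 5400 to 5808 with RAC1 P29S. MITF, of the same list, went against these sums: it rose by 1.57 with VAV1 and by 1.23 with RAC1 P29S, and fell by 1.09 with saracatinib, on the log2 scale. The listed ones of 6 haematopoietic markers, mainly CD68, summed to 705 to 755 with the empty vector and vehicle, 1172 to 1224 with VAV1 and 2451 to 2686 with VAV1 and saracatinib, and to 406 to 482 with the untreated empty vector and 938 to 1039 with RAC1 P29S, with PTPRC at a mean of at most 2.74 in any group and CD3E not listed. With VAV1 and with RAC1 P29S the rise of this sum was that of CD68, while LYZ fell by 2.11 with VAV1 and fell by 0.89 with RAC1 P29S. The 4 listed of 6 epithelial markers, mainly KRT8 and KRT18, summed to 6022 to 6819, 12992 to 13964 and 8036 to 8434, and to 3111 to 3550 and 6176 to 6904, in the same order, with EPCAM and KRT5 not listed. KRT14, of the same list, fell by 1.28 with VAV1 and fell by 0.47 with RAC1 P29S. Fibroblast markers summed to 123 to 467 and endothelial markers to 42.3 to 116 over all libraries. Whether these marker shifts take part in the values below was not tested.

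p53 is a transcription factor that is held low by MDM2, an E3 ubiquitin ligase whose own gene p53 switches on, so that the pair form a negative feedback loop. When DNA damage or oncogenic stress frees p53, it raises genes that stop the cell cycle, that start apoptosis through death receptors and mitochondria, and that restrain growth. GDF15 is a secreted cytokine of the TGF-beta superfamily and is raised by p53, but also by ATF4 and CHOP, the transcription factors of the integrated stress response.

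The promoter windows of RefSeq (GRCh38.p14, 250 bases before to 50 after each annotated start) were searched for the p53 response element, a 20-base site with its core C and G bases intact and at most 3 mismatches, on both strands. Of the 10 genes, 8 are in the table, with 16 windows. The element was found in 5 of the 16 windows and in 4 of the 8 genes, GDF15, MDM2, FAS and SESN1, against 1.12% of all 35116 windows. In MDM2, FAS and SESN1 the element was in windows of downstream starts, and the windows of their more upstream starts held none. Overlapping windows of MDM2 hold the same element, so the window count includes it more than once. The share of 1.12% is over windows and not over genes. The bases before the start of 3 of these windows are printed with the element in capitals, so that the match can be seen beside the measured values of these genes; each runs 5′ to 3′ on the gene's strand. MDM2 is shown at chr12:68808767-68809016, plus strand, where the element spans positions -94 to -75 from the start with 2 mismatches. FAS is shown at chr10:88991181-88991430, plus strand, where it spans positions -122 to -103 with 2 mismatches. SESN1 is shown at chr6:109008989-109009238, minus strand, where it spans positions -49 to -30 with 3 mismatches.
MDM2: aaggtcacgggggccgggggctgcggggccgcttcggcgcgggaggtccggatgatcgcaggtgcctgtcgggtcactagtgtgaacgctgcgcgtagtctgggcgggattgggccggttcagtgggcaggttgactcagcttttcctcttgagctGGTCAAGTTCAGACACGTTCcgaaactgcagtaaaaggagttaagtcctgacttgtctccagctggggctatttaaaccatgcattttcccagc
FAS: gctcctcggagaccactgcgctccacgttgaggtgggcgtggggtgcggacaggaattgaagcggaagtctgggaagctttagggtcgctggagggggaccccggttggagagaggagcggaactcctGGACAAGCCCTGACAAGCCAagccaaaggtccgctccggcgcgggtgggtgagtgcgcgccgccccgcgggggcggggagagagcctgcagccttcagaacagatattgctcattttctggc
SESN1: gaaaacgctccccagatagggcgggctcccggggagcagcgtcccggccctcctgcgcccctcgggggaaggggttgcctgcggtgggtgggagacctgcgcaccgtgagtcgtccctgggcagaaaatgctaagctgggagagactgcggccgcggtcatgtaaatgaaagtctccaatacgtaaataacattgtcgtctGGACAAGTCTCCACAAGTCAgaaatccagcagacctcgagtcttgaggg
In GDF15, the gene with the largest change, the match lies after the start, 29 to 48 bases into the transcript, with 3 mismatches. The match and the 250 bases before the start, at chr19:18385908-18386157 on the plus strand, are printed apart.
GDF15 match: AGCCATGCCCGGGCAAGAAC
GDF15 before the start: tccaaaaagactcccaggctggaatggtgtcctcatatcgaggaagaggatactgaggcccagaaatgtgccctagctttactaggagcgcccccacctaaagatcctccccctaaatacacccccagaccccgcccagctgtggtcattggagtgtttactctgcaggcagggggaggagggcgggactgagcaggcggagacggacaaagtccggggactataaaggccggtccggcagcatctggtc

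Other motifs were searched in the same windows. The AP-1 site TGANTCA, on both strands, was in 4 of the 16 windows, of BBC3, FAS and MDM2, and in 7.71% of all windows. The overlapping MDM2 windows again hold the same site. In the MDM2 window shown it ends at position -112 and shares no base with the p53 element. The ATF4 composite site TGATGCAA was in none of the 16 windows, that of GDF15 included, and in 0.866% of all windows. A match is a description of letters, and the absence of one concerns these windows only.

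In GENCODE v29 (GRCh38) the 10 genes are protein coding and lie at GDF15 chr19:18374731-18389176, MDM2 chr12:68808176-68850686, FAS chr10:88990582-89015785, BAX chr19:48954815-48961798, BBC3 chr19:47220822-47232766, TNFRSF10B chr8:23020133-23069179, ZMAT3 chr3:179017223-179072279, SESN1 chr6:108986437-109094819, TP53INP1 chr8:94925972-94949411 and BTG2 chr1:203305491-203309602. GDF15, BAX, ZMAT3, TP53INP1 and BTG2 share no exon with another gene. MDM2 shares exon bases with CPM, FAS with ACTA2 and TNFRSF10B with RHOBTB2, each on the opposite strand, and whether the authors' counting used strand is not given in the sources used here. MDM2 also shares bases with a processed pseudogene on its own strand and with an antisense gene. BBC3 shares bases with the microRNA genes MIR3190, on the opposite strand, and MIR3191, on the same strand. SESN1 shares bases with an antisense gene.

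GDF15 was about 16-fold higher with VAV1 and 19-fold higher with RAC1 P29S, while those of the other 9 genes that rose did so by at most 2.34-fold in these comparisons. The cytokine stood at 5.65, 5.72 and 6.19 with the empty vector and vehicle, at 9.85, 9.89 and 9.87 with VAV1, and at 9.28, 9.62 and 9.42 with VAV1 and saracatinib. With the untreated empty vector it stood at 4.66, 4.93 and 4.82, and with RAC1 P29S at 9.02, 9.22 and 8.99. Every library with VAV1 or RAC1 P29S lay above every control of its own experiment by more than 3 log2 units, and the saracatinib libraries all lay below the VAV1 libraries with vehicle. Levels of the 2 experiments were normalized separately and are set side by side only for orientation.

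GDF15 rose with VAV1 by 4.02 ± 0.13 (log2 fold change ± SE, n = 3 libraries per group, 95% interval 3.73 to 4.31, limma adjusted p = 5.14e-11), a 16.2-fold difference that ranks 48 of the 14410 genes tested. With RAC1 P29S it rose by 4.28 ± 0.14 (interval 3.96 to 4.59, adjusted p = 1.40e-08), a 19.4-fold difference that ranks 24 of 14036. More than 4-fold higher and past the threshold of an adjusted p of 0.05 were 1.98% of genes with VAV1 and 1.51% with RAC1 P29S, and GDF15 was the only one of the 10 genes among them. These are bulk values, in which more cells with the transcript and more transcript per cell cannot be told apart. Fold changes are on the log2(normalized count + 1) scale, which understates the change of low genes.

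**Figure D1:**
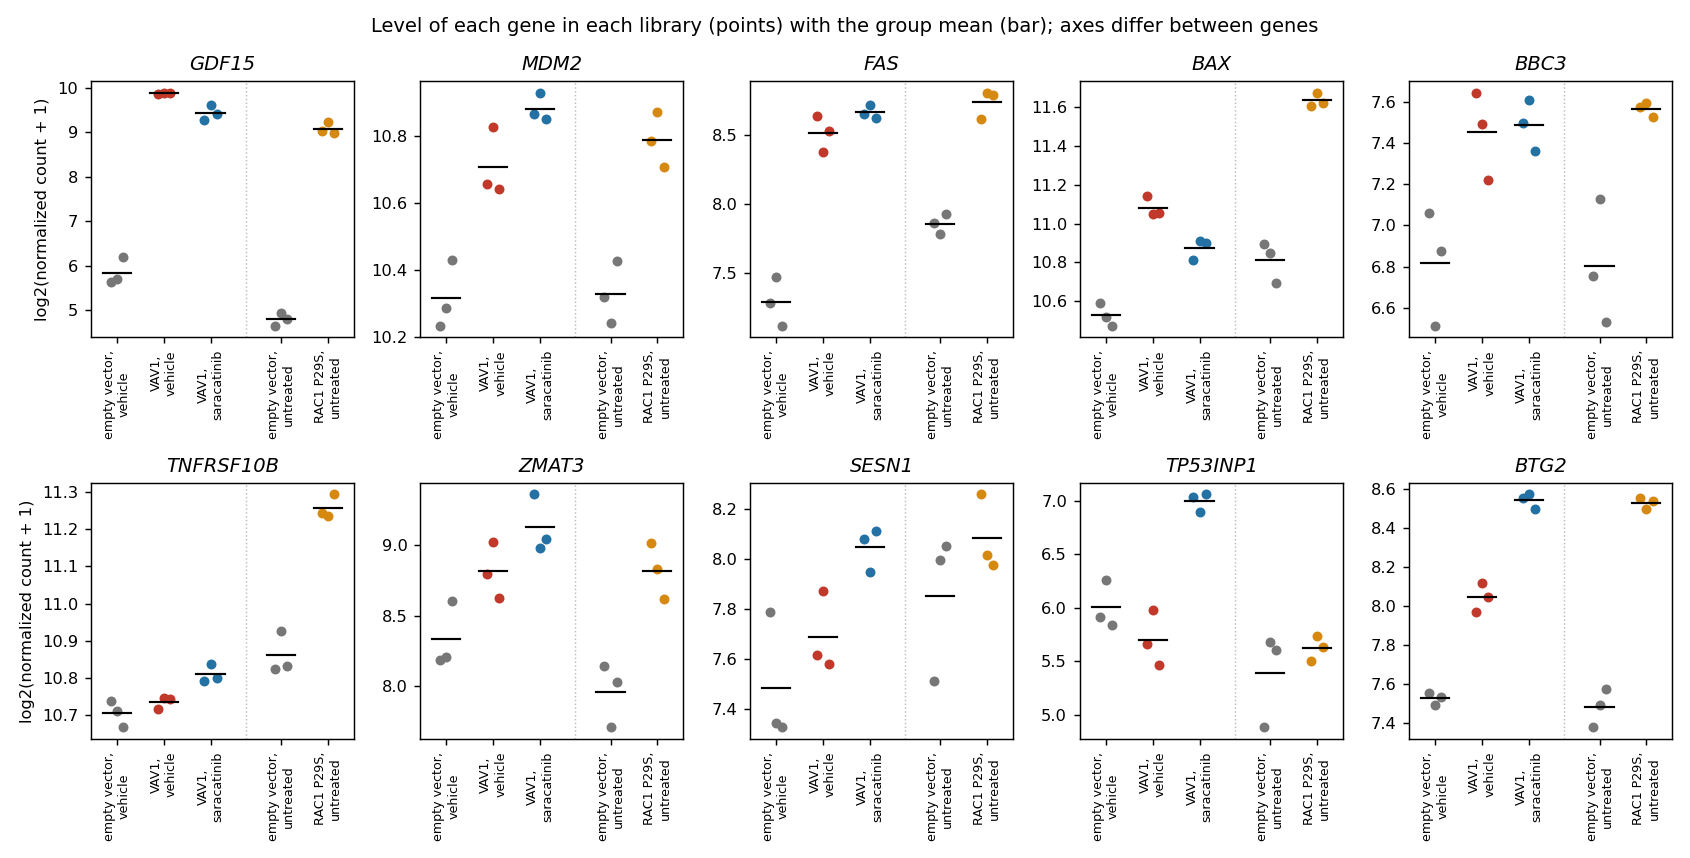
Level of each of the 10 genes in every library, as log2(normalized count + 1) on the y axis with a separate range for each gene, by group on the x axis; points are libraries and bars are group means of 3, and the dotted line parts the 2 experiments. The GDF15 points with VAV1 or RAC1 P29S, 8.99 to 9.89, are far above their controls, 4.66 to 6.19.

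With VAV1 against the empty vector, both with vehicle, 7 of the 10 genes rose and none fell; of all genes tested, 23.6% rose and 20.1% fell. The 7 were GDF15, MDM2, FAS, BAX, BBC3, ZMAT3 and BTG2. Among the 9 without GDF15, 6 rose, the median log2 fold change was 0.49 against 0.02 over all genes, and the values ran from -0.30 to 1.23. The sign was that of GDF15 in 8 of the 9, the exception being TP53INP1, but the intervals of TNFRSF10B, SESN1 and TP53INP1 included 0. A rise past the threshold was therefore shared by 6 of the 9, against 23.6% of all genes, and the size was not shared.

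Of the feedback arm, MDM2 stood at 10.23, 10.29 and 10.43 with the empty vector and at 10.66, 10.83 and 10.64 with VAV1. The groups did not overlap, and MDM2 rose by 0.39 ± 0.07 (adjusted p = 0.000368). MDM4, the related p53 inhibitor, overlapped between the groups, with a difference of -0.01 ± 0.13 (adjusted p = 0.954).

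The death receptor gene FAS stood at 7.27, 7.47 and 7.11 with the empty vector and at 8.64, 8.38 and 8.53 with VAV1, so that the groups lay apart. It rose by 1.23 ± 0.11 (adjusted p = 1.10e-06), the largest change after GDF15 among the 10 genes. ACTA2, whose exons overlap those of FAS on the opposite strand, also rose, by 0.69 ± 0.14, and its part in the FAS value was not tested. The other death receptor, TNFRSF10B, which binds TRAIL, stood at 10.74, 10.71 and 10.67 and at 10.72, 10.75 and 10.75. Its groups overlapped, and the difference was 0.03 ± 0.05 (interval -0.07 to 0.13, adjusted p = 0.651).

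Both mitochondrial members rose with VAV1. BAX, which opens the outer mitochondrial membrane, stood at 10.59, 10.52 and 10.47 with the empty vector and at 11.14, 11.05 and 11.05 with VAV1, a rise of 0.55 ± 0.05 (adjusted p = 2.47e-06). BBC3, which encodes the BAX activator PUMA, stood at 7.06, 6.51 and 6.88 and at 7.64, 7.49 and 7.22, a rise of 0.63 ± 0.16 (adjusted p = 0.00608). Neither gene's groups overlapped, though the controls of BBC3 spread over more than 0.5 log2 units.

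The members that act on growth and RNA were mixed. BTG2, an antiproliferative partner of the mRNA deadenylase complex, stood at 7.55, 7.49 and 7.53 and at 7.97, 8.12 and 8.05, and rose by 0.52 ± 0.09 (adjusted p = 0.000445). ZMAT3, an RNA-binding zinc finger protein, stood at 8.18, 8.21 and 8.60 and at 8.80, 9.03 and 8.63, and rose by 0.49 ± 0.14 (adjusted p = 0.0127). Its highest control nearly met its lowest VAV1 library, and the call was lost without empty vector library 1 (adjusted p = 0.0533) or VAV1 library 2 (0.0561). SESN1, a sestrin that restrains growth signalling, stood at 7.79, 7.34 and 7.33 and at 7.62, 7.87 and 7.58, a difference of 0.20 ± 0.14 (adjusted p = 0.260), which passed without empty vector library 1 (0.0448). TP53INP1, a p53-induced protein that acts in autophagy and apoptosis, stood at 5.92, 6.26 and 5.84 and at 5.66, 5.98 and 5.47, a difference of -0.30 ± 0.19 (adjusted p = 0.207). SESN1 and TP53INP1 overlapped between the groups, and the libraries of the 7 genes that rose did not; 28.2% of all genes were non-overlapping and higher.

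The pathway beyond these 10 genes was described by a longer list. Of 40 other p53 targets, 38 were tested, 21 rose and 3 fell with VAV1, with a median of 0.35. KITLG, the ligand of the receptor KIT, rose by 2.96 ± 0.16, the kinase PLK2 by 1.45 ± 0.08 and the ribosomal protein-like RPS27L by 0.99 ± 0.08. GADD45A, a growth arrest gene, rose by 0.97 ± 0.09, PMAIP1, which encodes NOXA, by 0.90 ± 0.07, and CDKN1A, which encodes the cell cycle inhibitor p21, by 0.74 ± 0.06 (adjusted p = 2.26e-07). The 3 that fell were AEN, an apoptosis-enhancing nuclease, by 0.49, APAF1, the scaffold of the apoptosome, by 0.51, and TP53I3 by 0.32, all on the log2 scale. CDKN1A stood at 10.49, 10.40 and 10.36 with the empty vector and at 11.10, 11.14 and 11.21 with VAV1, without overlap.

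Of the 13 regulators of p53 that were tested, 4 fell and 1 rose with VAV1. The kinase HIPK2 fell by 1.01, the p53 relative TP73 by 1.34 and TP53BP1 by 0.26, and the deubiquitinase USP7 rose by 0.20. Of 15 cell cycle genes known to be lowered through p21 and the DREAM complex, 11 rose and none fell with VAV1, CDC20 by 0.51 and CCNA2 by 0.41.

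The ATF4 and CHOP genes, the other known route to GDF15, were also higher with VAV1: of 22 tested, 19 rose and 2 fell, with a median of 0.64. MTHFD2 of the folate pathway rose by 0.87 and the pseudokinase TRIB3 by 0.92. The phosphatase regulator PPP1R15A rose by 0.93 and PSAT1, of serine synthesis, by 0.938. These had the smallest adjusted p among the genes of the list that rose, and others changed more. The largest log2 fold change of the list was 3.45, for NUPR1, whose mean was 5.27 with the empty vector and 8.72 with VAV1. The mean of STC2 went from 7.32 to 9.50, that of ATF3 from 6.12 to 8.07 and that of CHAC1 from 7.73 to 8.94. DDIT4 fell by 0.65 and the cystine transporter SLC7A11 by 0.38. SESN2, which rose by 0.61, stands on both this list and that of the other p53 targets. FURIN and PCSK5, proprotein convertases able to process growth factor precursors, fell by 0.73 and 1.52, and the GDF15 receptor gene GFRAL and its partner RET were not tested.

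**Figure D2:**
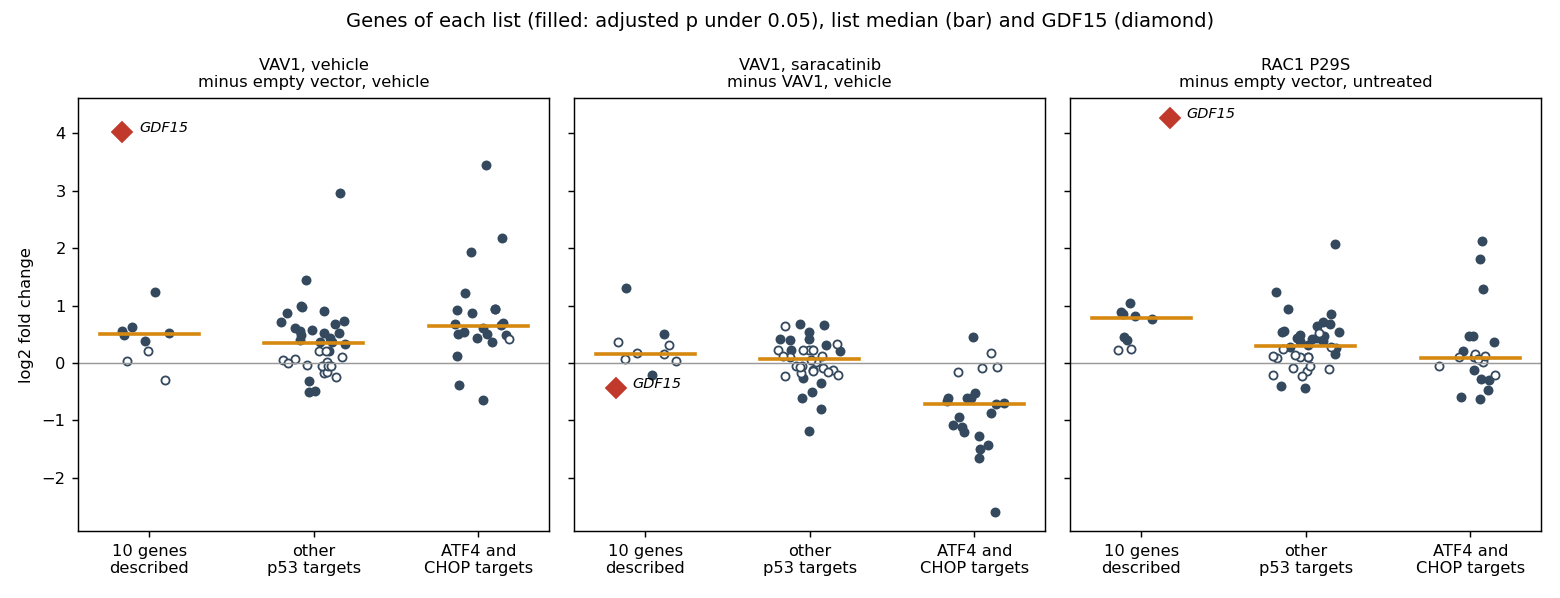
Log2 fold change (y axis) of the 10 genes, 38 other p53 targets and 22 ATF4 and CHOP targets (x axis) in 3 comparisons, 1 panel each; filled points have an adjusted p under 0.05, bars are list medians and the diamond is GDF15. GDF15 stands above every other point with VAV1 (4.02) and RAC1 P29S (4.28); with saracatinib it is at -0.43, between the median of the other p53 targets (0.07) and that of the ATF4 and CHOP targets (-0.71).

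With saracatinib against vehicle in VAV1 cells, GDF15 and BAX fell and TP53INP1 and BTG2 rose, so 2 of the 10 genes moved each way; of all genes 18.3% rose and 19.1% fell. GDF15 fell by 0.43 ± 0.13 on the log2 scale (interval -0.72 to -0.14, adjusted p = 0.0224), to 0.742 times its level with vehicle. Its call was lost without VAV1 vehicle library 1 (adjusted p = 0.0509), 2 (0.0623) or 3 (0.0595), and without saracatinib library 1 (0.0938) or 3 (0.0615), each time with the same sign. Of the other 9 genes, BAX alone had the sign of GDF15, and the median was 0.17. This comparison shares the VAV1 vehicle libraries with the preceding one, so their values are not independent.

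BAX stood at 11.14, 11.05 and 11.05 with vehicle and at 10.81, 10.91 and 10.90 with saracatinib, and fell by 0.21 ± 0.05 on the log2 scale (adjusted p = 0.00853). TP53INP1 moved most, from 5.66, 5.98 and 5.47 to 7.04, 6.90 and 7.06, a rise of 1.30 ± 0.19 (2.46-fold, adjusted p = 0.000110). With VAV1 alone it had not passed the test, and its saracatinib libraries also lay above all empty vector libraries. BTG2 went from 7.97, 8.12 and 8.05 to 8.55, 8.57 and 8.50, a rise of 0.50 ± 0.09 (adjusted p = 0.000809). BTG2 thus stood lowest with the empty vector, higher with VAV1 and highest with VAV1 and saracatinib, with no overlap between any of these groups.

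The remaining 6 genes did not pass the test with saracatinib. MDM2 stood at 10.86, 10.93 and 10.85, above all 3 vehicle libraries, with a difference of 0.17 ± 0.07 (adjusted p = 0.0571), and SESN1 at 8.08, 7.95 and 8.12, with 0.36 ± 0.14 (adjusted p = 0.0589). Both lie close to the threshold: MDM2 passed without empty vector library 3 (adjusted p = 0.0454) or VAV1 vehicle library 2 (0.0188), and SESN1 without empty vector library 1 (0.0273) or VAV1 vehicle library 2 (0.0387). Processing moved both calls as well. MDM2 passed under median-of-ratios scaling (0.0487), total-count scaling (0.0471) and quantile normalization (0.0250). It also passed with a filter at a normalized count of 50 (0.0496) and with only the compared groups in the fit (0.0448). SESN1 passed under total-count scaling (0.0487) and with only the compared groups in the fit (0.0301). ZMAT3, at 9.36, 8.98 and 9.04, differed by 0.31 ± 0.14 (adjusted p = 0.100) and passed without VAV1 vehicle library 2 (0.0492). FAS, at 8.66, 8.72 and 8.63, differed by 0.15 ± 0.11 (adjusted p = 0.311). BBC3, at 7.50, 7.61 and 7.36, differed by 0.04 ± 0.16 (interval -0.31 to 0.38, adjusted p = 0.887), and TNFRSF10B, at 10.79, 10.84 and 10.80, by 0.07 ± 0.05 (adjusted p = 0.246).

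Other p53 targets split with saracatinib, 10 of 38 rising and 6 falling, with a median of 0.07. CDKN1A rose by 0.66 ± 0.06, to 11.80, 11.90 and 11.75, the desmosomal gene PERP by 0.41 and TP53I3 by 0.42. The AKT inhibitor gene PHLDA3 rose by 0.55, the lysosomal DRAM1 by 0.42 and the RNA sensor gene TLR3 by 0.69. PLK2 fell by 1.19, KITLG by 0.80, SESN2 by 0.61, PLK3 by 0.51, GADD45A by 0.35 and PML by 0.26, and of these PLK2, KITLG, SESN2, PLK3 and GADD45A had risen with VAV1. MDM4 fell by 0.43 ± 0.13 (adjusted p = 0.0228), CHEK1 by 0.40 and USP7 by 0.26, and HIPK2 rose by 0.20.

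The ATF4 and CHOP list fell with saracatinib, 17 of 22 genes against 1 that rose, with a median of -0.71. ASNS, which makes asparagine, fell by 1.66, PSAT1 fell by 1.504, MTHFD2 by 1.21 and PHGDH, the entry enzyme of serine synthesis, by 1.12, and DDIT4 rose by 0.45. GDF15 fell by less than the median of that list. The DREAM genes fell in 14 of 15 cases, MYBL2 by 1.02 and CDC20 by 0.89.

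**Figure D3:**
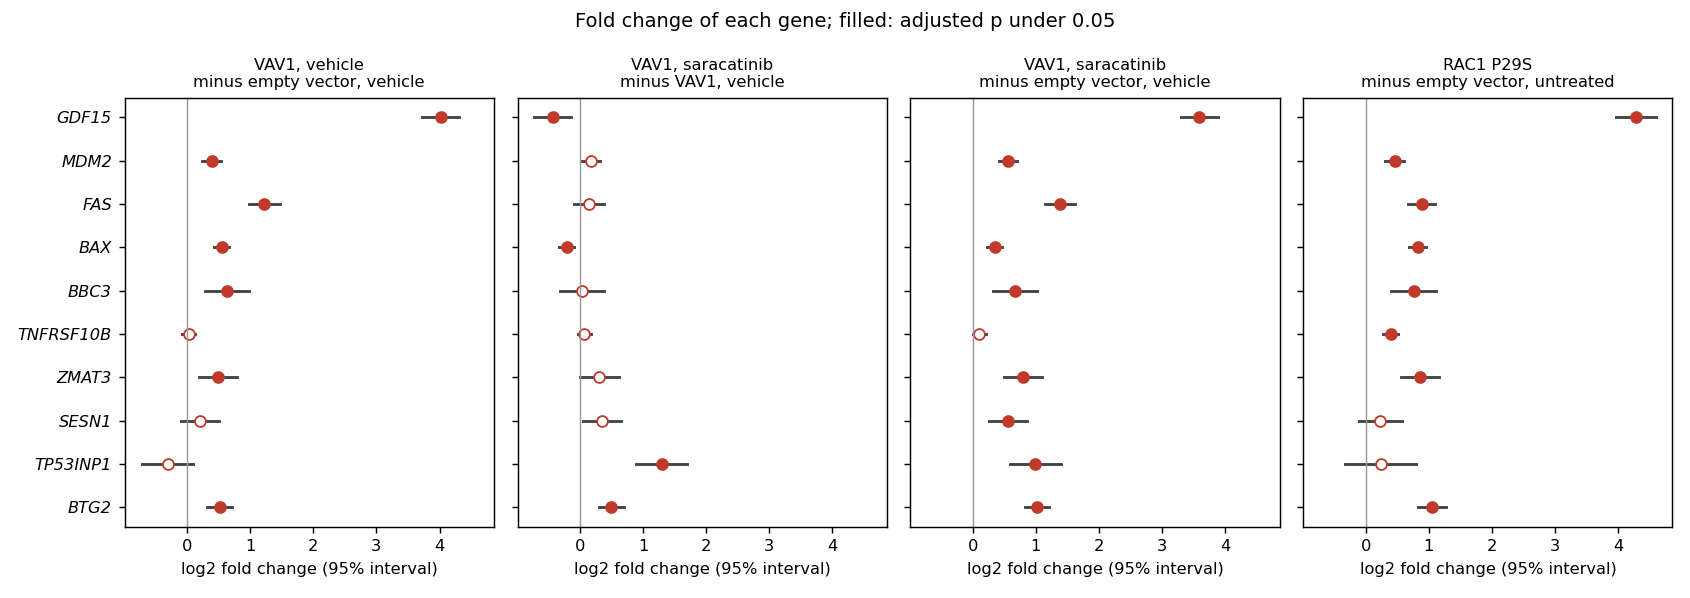
Log2 fold change (x axis) of each of the 10 genes (y axis) in 4 comparisons, 1 panel each, with 95% intervals; filled points have an adjusted p under 0.05. GDF15 is near 4 in 3 panels and at -0.43 in the saracatinib panel, TP53INP1 changes sign between the VAV1 panel (-0.30) and the saracatinib panel (1.30), and the other points lie between -0.21 and 1.38.

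VAV1 cells under saracatinib were still far from the empty vector cells with vehicle, with 9 of the 10 genes higher and none lower, where 22.4% of all genes were higher and 21% lower. This comparison shares its libraries with both preceding ones and differs in 2 factors at once, so it gives a position and not an effect of the drug. GDF15 was higher by 3.59 ± 0.13 (12.01-fold, adjusted p = 2.70e-10), rank 67 of 14410, and the median of the other 9 was 0.67. FAS was higher by 1.38 ± 0.11, BTG2 by 1.02 ± 0.09, TP53INP1 by 0.99 ± 0.19 and ZMAT3 by 0.80 ± 0.14. BBC3 was higher by 0.67 ± 0.16, MDM2 by 0.56 ± 0.07, SESN1 by 0.56 ± 0.14 and BAX by 0.35 ± 0.05. TNFRSF10B differed by 0.10 ± 0.05 (adjusted p = 0.0950).

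Of the other p53 targets, 20 of 38 were higher and 2 lower in that comparison; without saracatinib library 2, 1 was lower. CDKN1A was higher by 1.40 ± 0.06, KITLG by 2.15, RPS27L by 1.09, CMBL by 0.79, PERP by 0.76 and PMAIP1 by 0.75, and AEN was lower by a log2 fold change of -0.54 and APAF1 of -0.29. Of the 13 regulators of p53, 7 were lower, MDM4 among them at -0.44, against 2 higher, CDKN2A at 1.12 and KAT5 at 0.28. The ATF4 and CHOP list was split, with 8 higher, including NUPR1 at 2.51 and ATF3 at 1.06, and 10 lower, including PHGDH at -1.01 and ASNS at -0.99. GDF15 was at 3.59 in that comparison while the median of the ATF4 and CHOP list was -0.07.

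With RAC1 P29S against the untreated empty vector, 8 of the 10 genes rose and none fell, where 15.6% of all genes rose and 15.5% fell. All 9 genes other than GDF15 had its sign, 7 of them rose, and their median was 0.76 against -0.004 over all genes, with a range of 0.23 to 1.05. These libraries are separate from those of the VAV1 experiment. In size GDF15 again stood apart from the set, at 4.28.

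MDM2 stood at 10.32, 10.24 and 10.43 with the empty vector and at 10.78, 10.87 and 10.71 with RAC1 P29S, without overlap, and rose by 0.46 ± 0.07 (adjusted p = 0.000568). FAS stood at 7.86, 7.78 and 7.92 and at 8.62, 8.81 and 8.80, and rose by 0.89 ± 0.10 (adjusted p = 7.33e-05). ACTA2, on the opposite strand to FAS, rose by 1.18 ± 0.16, and its part was again not tested. TNFRSF10B, which had not passed the test with VAV1, stood at 10.82, 10.93 and 10.83 and at 11.24, 11.24 and 11.29. It rose by 0.40 ± 0.05 (adjusted p = 0.000233), while RHOBTB2, whose exons it shares, differed by 0.05 ± 0.09.

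BAX stood at 10.89, 10.85 and 10.70 with the empty vector and at 11.61, 11.67 and 11.62 with RAC1 P29S, and rose by 0.82 ± 0.06 (1.77-fold, adjusted p = 3.41e-06). BBC3 stood at 6.75, 7.13 and 6.53 and at 7.57, 7.59 and 7.52, and rose by 0.76 ± 0.16 (adjusted p = 0.00508). The RAC1 P29S libraries of BBC3 were tightly grouped and its controls were not. BTG2 stood at 7.37, 7.49 and 7.57 and at 8.55, 8.50 and 8.54, and rose by 1.05 ± 0.10 (2.07-fold, adjusted p = 2.53e-05). ZMAT3 stood at 8.14, 7.70 and 8.03 and at 9.01, 8.83 and 8.62, and rose by 0.86 ± 0.14 (adjusted p = 0.000957).

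SESN1 and TP53INP1 were the 2 genes that did not pass. SESN1 stood at 7.51, 7.996 and 8.05 and at 8.26, 8.02 and 7.98, with overlap and a difference of 0.23 ± 0.15 (adjusted p = 0.296). TP53INP1 stood at 4.88, 5.68 and 5.60 and at 5.51, 5.74 and 5.64, with overlap and a difference of 0.24 ± 0.25 (interval -0.32 to 0.79, adjusted p = 0.517). Empty vector library 1 was the lowest for both, and without it the sign of the TP53INP1 difference turned, to -0.02. The libraries of the 8 genes that rose did not overlap, and 22.6% of all genes were non-overlapping and higher.

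Of the other p53 targets 21 of 38 rose with RAC1 P29S and 2 fell, with a median of 0.29. KITLG rose by 2.08 ± 0.17, EDA2R, a receptor for an ectodysplasin, by 1.24 ± 0.15, PLK2 by 0.94 ± 0.07, the TRAIL receptor gene TNFRSF10A by 0.67 ± 0.09 and RPS27L by 0.44 ± 0.05. CDKN1A stood at 11.14, 11.14 and 10.996 and at 11.96, 11.90 and 11.94, and rose by 0.84 ± 0.05 (adjusted p = 1.32e-06). SERTAD1 fell by 0.44 and APAF1 by 0.41. Of the 13 regulators of p53, 2 fell and 1 rose: HIPK2 fell by 0.61, TP73 by 1.09, USP7 rose by 0.23, and MDM4 differed by 0.16 ± 0.18 (adjusted p = 0.548).

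The ATF4 and CHOP list was split with RAC1 P29S: 7 of 22 rose, 6 fell and the median was 0.08. STC2, a secreted glycoprotein gene, rose by 1.82, SESN2 by 0.48, PPP1R15A by 0.47 and the amino acid transporter SLC3A2 by 0.36. Those had the smallest adjusted p among the genes of the list that rose, and others changed more. The largest log2 fold change of the list was 2.13, for NUPR1. Its mean was 2.999 with the empty vector, a low level, and 5.13 with RAC1 P29S. The mean of ATF3 went from 6.43 to 7.72. SLC7A11 fell by 0.64, ASNS by 0.48, PHGDH by 0.29 and DDIT4 by 0.27. Of the DREAM genes 3 of 15 rose and 3 fell. FURIN fell by 0.46 and PCSK5 by 0.99, as both had with VAV1.

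The effects of VAV1 and of RAC1 P29S were compared directly, as the VAV1 effect minus the RAC1 P29S effect, over 13810 genes. Larger and smaller are read with the sign here and below, so a deeper fall with VAV1 counts as a smaller effect. The effects share no library, but the experiments also differ in vehicle, so VAV1 against RAC1 P29S and one experiment against the other cannot be told apart. For GDF15 the difference was -0.26 ± 0.19 (interval -0.66 to 0.15, adjusted p = 0.404), which leaves room for a modest difference in either direction. Of the 10 genes 3 had the smaller effect with VAV1 and none the larger; of all genes the effect was larger with VAV1 for 8.14% and smaller for 7.7%.

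TNFRSF10B differed by -0.37 ± 0.06 (adjusted p = 0.000840), from an effect of 0.03 with VAV1 and 0.40 with RAC1 P29S. BTG2 differed by -0.53 ± 0.12 (adjusted p = 0.00641), from 0.52 and 1.05. BAX differed by -0.27 ± 0.08 (adjusted p = 0.0271), from 0.55 and 0.82, and this call was lost without empty vector vehicle library 1 (adjusted p = 0.0689), VAV1 library 2 (0.0527) or 3 (0.0638), untreated empty vector library 3 (0.0593) or RAC1 P29S library 2 (0.0636). FAS was the gene of the 10 with the largest positive difference, 0.34 ± 0.15 (adjusted p = 0.125), and passed without empty vector vehicle library 2 (0.0471). The differences of MDM2 (-0.07 ± 0.10), BBC3 (-0.13 ± 0.23), SESN1 (-0.03 ± 0.22), ZMAT3 (-0.37 ± 0.21) and TP53INP1 (-0.54 ± 0.30) did not pass the test.

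**Figure D4:**
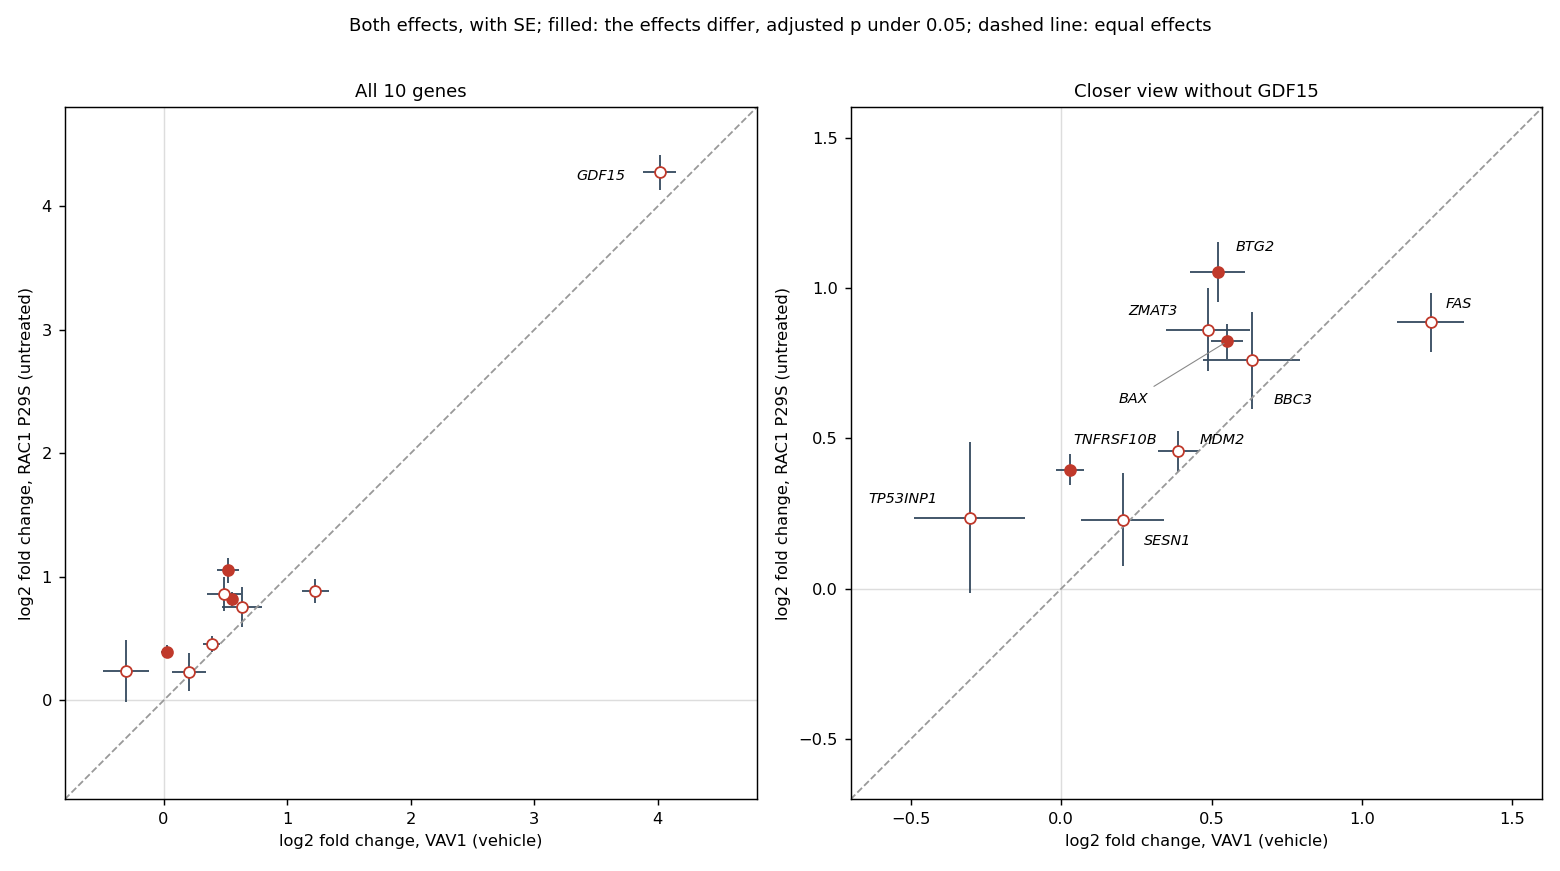
Log2 fold change with VAV1 (x axis) against that with RAC1 P29S (y axis) for all 10 genes on the left and for the 9 without GDF15 on the right; bars are SE, the dashed line marks equal effects and filled points have an adjusted p under 0.05 for the difference. GDF15 (4.02 and 4.28) lies near the line, and the 3 filled points, TNFRSF10B, BTG2 and BAX, lie above it.

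The difference of effects was also taken for the longer lists, again read with the sign. AEN, at -0.49 with VAV1 and 0.16 with RAC1 P29S, and DDIT4, at -0.65 and -0.27, thus count as smaller. Of the other p53 targets 7 of 38 had a larger effect with VAV1 and 2 a smaller one, and the median difference was -0.01. PMAIP1 differed by 0.80, RPS27L by 0.56, PLK2 by 0.51 and KITLG by 0.88, and AEN by -0.65 and DCP1B by -0.71. The count of smaller effects was 1 without empty vector vehicle library 1, 5 without its library 2, and 4 without its library 3 or without untreated empty vector library 2. CDKN1A differed by -0.11 ± 0.08 (adjusted p = 0.381). Of the ATF4 and CHOP list 13 of 22 had a larger effect with VAV1 and 1 a smaller one, with a median difference of 0.57; ASNS differed by 1.15, PSAT1 by 0.98, MTHFD2 by 0.77 and TRIB3 by 0.71. Beside these values GDF15 differed by -0.26.

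The genes whose pattern was most like that of GDF15 stand on neither p53 list, and not on the ATF4 and CHOP list. After centring each gene on the empty vector libraries of its own experiment, the root mean square difference from GDF15 over the 15 libraries was 0.386 for SOX9, a transcription factor gene, 0.510 for NOG, which encodes the BMP antagonist noggin, 0.510 for DMKN, 0.542 for the chemokine gene CCL3 and 0.601 for the keratin gene KRT34. SOX9 rose by 4.11 with VAV1 and by 3.96 with RAC1 P29S, and NOG by 4.06 and 4.24. Of the other 9 genes FAS came nearest, at 2.21 and rank 387 of 13809, followed by BTG2 at 2.42 and rank 568, and TNFRSF10B came last, at 2.94 and rank 3270. This measure reads size as well as direction, so a gene that moved the same way by less scores as far.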

How the data were processed

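Per the labels' protocols, total RNA of A375 cells was sequenced from TruSeq libraries; per the submitters' processing notes, kallisto, DESeq2 and GRCh38 were used, with versions and settings not given in the sources used here. The authors deposited 1 table per library of log2(normalized count + 1) values by gene symbol. Reads per library are unknown, so no counting interval is given.

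The deposited log2 values were fitted with limma 3.58.1 (R 4.3.3): 1 mean per group, empirical Bayes with trend and robust estimation, two-sided, Benjamini-Hochberg over all genes tested, threshold 0.05. The 9 vehicle and saracatinib libraries shared 1 fit and the 6 untreated libraries another; the difference of effects used all 15. A gene was tested where 3 or more libraries reached a normalized count of 10, which left 14410 and 14036 in the 2 experiments. The script was tested on simulated data. Alternatives covered scaling, filter, pseudocount (4 and 16), moderation, libraries in the fit, the replicate number as a block, and each library left out. Promoters came from RefSeq and exons from GENCODE v29; figures used Python 3.11.15 and matplotlib 3.10.9.

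The 10 genes and all lists were chosen with earlier results of these data known, so no p-value is adjusted over a list alone. Named from each list and comparison were the genes with the smallest adjusted p past the threshold, up to 6 per direction for other p53 targets, 4 for ATF4 and CHOP targets and for regulators of p53, and 2 for the remaining lists, and MDM4, CDKN1A, RAC1 and VAV1 were always named, as were the 5 genes most like GDF15. SESN2, NUPR1, STC2, ATF3 and CHAC1 with VAV1, and NUPR1 and ATF3 with RAC1 P29S, were named beside that rule. So were PTPRC and the pigment genes as lineage checks, and genes whose exons overlap a member. 1 gene that this rule names is not reported here.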

Additional observations from a re-analysis of the deposited data

Results flagged for a closer look

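The effects of VAV1 and of RAC1 P29S differed for 3 of the 10 genes in the direct test of the difference (limma, adjusted over 13810 genes), which is why they are listed. The VAV1 effect was smaller than the RAC1 P29S effect by a log2 difference of -0.270 for BAX, -0.532 for BTG2 and -0.366 for TNFRSF10B, with adjusted p-values of 0.0271, 0.00641 and 0.000840. For BAX and BTG2 both effects were rises, and for TNFRSF10B the rise with RAC1 P29S passed the test and the VAV1 difference did not. The experiments differ in vehicle as well as in the expressed gene, and these cannot be told apart.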

How the results depend on the processing

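Over 12 alternative settings and 15 single-library omissions, 37 of the 50 results for single genes (10 genes in 5 comparisons) kept direction and side of the threshold. GDF15 kept both with VAV1, with RAC1 P29S and under VAV1 with saracatinib in every alternative run; its saracatinib call was lost without trend and robust estimation (adjusted p = 0.0587), beside the library omissions given above. With saracatinib, the number of the 10 genes higher was 4 under total-count scaling and 4 with only the compared groups in the fit, and 2 to 5 with a library left out; the number lower was 1 without trend and robust estimation and 1 to 2 with a library left out. BBC3 with saracatinib turned sign under quantile normalization (-0.0182) and ranged from -0.0797 to 0.131 with a library left out. With a library left out TP53INP1 with RAC1 P29S ranged from -0.0170 to 0.384, and other p53 targets lower under VAV1 with saracatinib numbered 1 to 3. For the difference of effects, GDF15 was at 0.0105 with a pseudocount of 16; with a library left out BBC3 ranged from -0.287 to 0.0112 and SESN1 from -0.126 to 0.146, the count of the 10 genes with a larger VAV1 effect was 0 to 1, and other p53 targets with a smaller one numbered 1 to 5, against 5 under upper-quartile scaling and 4 under quantile normalization. The causes were not tested. With the replicate block, BAX lost its call in the difference of effects (-0.270, adjusted p = 0.0525) and 2 of the 10 genes had a smaller VAV1 effect instead of 3; the counts of the 10 genes in the other comparisons did not move. Same-numbered libraries were not treated as pairs in the main fit. Their residual correlations were -0.0547 to 0.0125 over 12 pairs, and 1 of 15 libraries correlated best with its own number. No shared replicate effect was visible, but residuals from groups of 3 cannot show whether these libraries were handled together. With 3 libraries per group and no read depth, small differences in genes with a larger SE, among them BBC3, SESN1 and TP53INP1, could not be resolved.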
